A study of Caenorhabditis elegans with 6 samples.

Results

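The genes described are elt-1, elt-3, egl-18 and elt-6, the 4 epidermal GATA factor genes of Caenorhabditis elegans, chosen by name among 19973 protein-coding genes of the WBcel235 annotation. They were described from peak lists of ChIP-seq, which sequences the DNA recovered with a protein, here to mark where a tagged ELT-3 protein was found on the genome. The samples form 1 group of whole animals, male and female pooled, at the third larval stage (L3). By the labels all belong to strain OP75, which carries the unc-119(ed3) allele on III and the transgene wgIs75, made for elt-3. From it the animals express ELT-3 with GFP and FLAG at its C-terminus. The promoter in the transgene, its number of copies and the length of genomic DNA it carries are not stated in the labels. The 6 libraries came from biological replicates 1, 2, 4 and 5, and the 3 technical libraries of replicate 2 were counted once. There was no second condition and no untagged group, so no test was run and all values below are descriptions.

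GATA factors bind DNA through a zinc finger that reads the letters GATA and flanking bases. In the worm epidermis ELT-1 specifies epidermal fate in the embryo, and ELT-3 acts after it in the main body epidermis, where it is known for control of cuticle collagen and stress genes. EGL-18 and ELT-6 keep the seam cells, the lateral stem-like cells of the epidermis, in their fate and lie downstream of Wnt signalling. The question put to the lists is whether tagged ELT-3 was found at the sequence of its own gene and at the genes of the other GATA factors. For elt-3 itself, the lists cannot tell the native gene from the copies in the transgene.

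Each gene was given a window from 5 kb upstream of its first annotated 5′ end to its 3′ end, and a peak was counted by its summit, the base of highest signal. The optimal list of 1047 peaks holds those that passed the authors' irreproducible discovery rate (IDR) threshold, a filter on agreement between replicates. The pooled list of 14525 peaks was called on all replicates together. Each replicate list holds 30000 peaks and background regions, so a place in it alone is weak evidence of binding. Peaks were ranked within each list by the deposited signal value, with rank 1 the strongest. A replicate peak is called strong here when its rank is 1047 or better, the length of the optimal list. The 1047 optimal peaks were also the 1047 highest ranked of the pooled list. A place in the optimal list therefore does not by itself show that a peak was found in each replicate.

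Within the elt-3 window there were 5 optimal summits, and in the windows of elt-1, egl-18 and elt-6 there were 0. So 1 of the 4 genes was called in the optimal list, where 7.62% of all protein-coding genes were. In the pooled list the windows held 5 summits for elt-3, 2 for elt-1, 4 for egl-18 and 1 for elt-6. All 4 genes were thus called there, but 62.2% of all genes were, so a pooled summit is common at any gene. The 7 pooled summits outside elt-3 ranked from 3134 to 13560, and 0 of them had a strong match in any replicate.

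The sequences around these summits show where GATA motifs stand and where they do not. The motif searched was AGATAA, the same with T as its opening base (TGATAA), with G as its closing base (AGATAG) or with both of these changes (TGATAG). Matches on either strand were taken up to 50 bp from the summit. It was present at 2 of the 5 optimal summits of elt-3, where 39.4% of all optimal summits had it. It was present at 4 of the 12 pooled summits of the 4 genes, where 25.5% of all pooled summits had it. The 101 bp around each elt-3 summit are printed from the RefSeq copy of WBcel235 (ce11), 5′ to 3′ on the plus strand, which is the coding strand, named by distance from the first 5′ end, with motifs in capitals. They lie at chrX:13936995-13937095, chrX:13937544-13937644, chrX:13938094-13938194, chrX:13938841-13938941 and chrX:13940445-13940545.
elt-3 +2171: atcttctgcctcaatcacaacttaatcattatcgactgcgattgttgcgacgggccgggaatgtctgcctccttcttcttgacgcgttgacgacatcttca
elt-3 +2720: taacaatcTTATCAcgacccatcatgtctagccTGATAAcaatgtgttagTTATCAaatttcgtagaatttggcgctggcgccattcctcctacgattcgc
elt-3 +3270: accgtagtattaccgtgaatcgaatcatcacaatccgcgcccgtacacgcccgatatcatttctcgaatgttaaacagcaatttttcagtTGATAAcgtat
elt-3 +4017: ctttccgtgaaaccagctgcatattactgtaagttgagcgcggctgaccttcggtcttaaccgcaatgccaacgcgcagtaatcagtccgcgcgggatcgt
elt-3 +5621: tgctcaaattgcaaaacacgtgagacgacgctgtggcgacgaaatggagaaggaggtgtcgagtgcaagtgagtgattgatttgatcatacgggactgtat

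The +2720 summit stood in a cluster of 3 motifs. Counted from the summit base to the leftmost base of the motif, they began at −42, −17 and 0 bp, so that 1 began at the summit itself. All 3 read TGATAA on 1 strand or the other. Of all optimal summits, 5.92% had 3 or more motifs within 50 bp. The +3270 summit had 1 TGATAA, 40 bp to the right. No whole motif of these spellings was in the printed windows at +2171, +4017 and +5621. A motif that began at +2119 was cut by the left edge of the +2171 window, and so was not counted. GC content of the 5 windows was 48.5%, 42.6%, 41.6%, 54.5% and 47.5% from left to right, against a median of 43.6% over all optimal summits.

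For comparison, 4 windows on chromosome IV at the genes with no optimal summit are printed in the same way. They are the highest ranked pooled summit of elt-1, egl-18 and elt-6, and the other egl-18 summit with a motif. They lie at chrIV:9610800-9610900, chrIV:1901258-1901358, chrIV:1902554-1902654 and chrIV:1919648-1919748.
elt-1 −4145: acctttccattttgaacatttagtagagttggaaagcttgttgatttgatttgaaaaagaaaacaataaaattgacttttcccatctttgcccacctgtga
egl-18 −1014: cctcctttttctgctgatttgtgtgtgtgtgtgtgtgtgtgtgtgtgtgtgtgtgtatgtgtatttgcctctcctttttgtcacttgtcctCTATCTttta
egl-18 +282: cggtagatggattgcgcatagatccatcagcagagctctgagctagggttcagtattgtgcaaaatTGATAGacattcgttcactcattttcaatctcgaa
elt-6 +1721: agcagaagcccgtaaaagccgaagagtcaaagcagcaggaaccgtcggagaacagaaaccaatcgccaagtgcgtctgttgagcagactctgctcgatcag

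The egl-18 −1014 window carried a GT repeat of 36 bp, and its motif stood at the far right. Of its 77 stretches of 25 bases, 32.5% occurred elsewhere in the genome as well. The same share was 7.79% and 14.3% at the egl-18 summits +4268 and +7316, and 0% at the other 9 summits of the 4 genes, all 5 of elt-3 included. The sources used here do not say how reads from repeated sequence were placed.

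elt-3 (WBGene00001251) lies on X from 13934874 to 13941216 on the plus strand, with 6 annotated transcripts. Its 5 optimal summits lay within 3450 bp, all downstream of the first 5′ end and spaced 549, 550, 747 and 1604 bp apart. The summits at +2171, +2720 and +3270 lay in the long intron of the 3 transcripts that start farthest upstream. Counted from the next 5′ end, that of the shorter transcript K02B9.4a.1, they lay at −1698, −1149 and −599 bp. The +4017 summit lay in an intron of 4 transcripts, 148 bp past that 5′ end. The +5621 summit lay in coding sequence of all 6 transcripts.

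**Figure D1:**
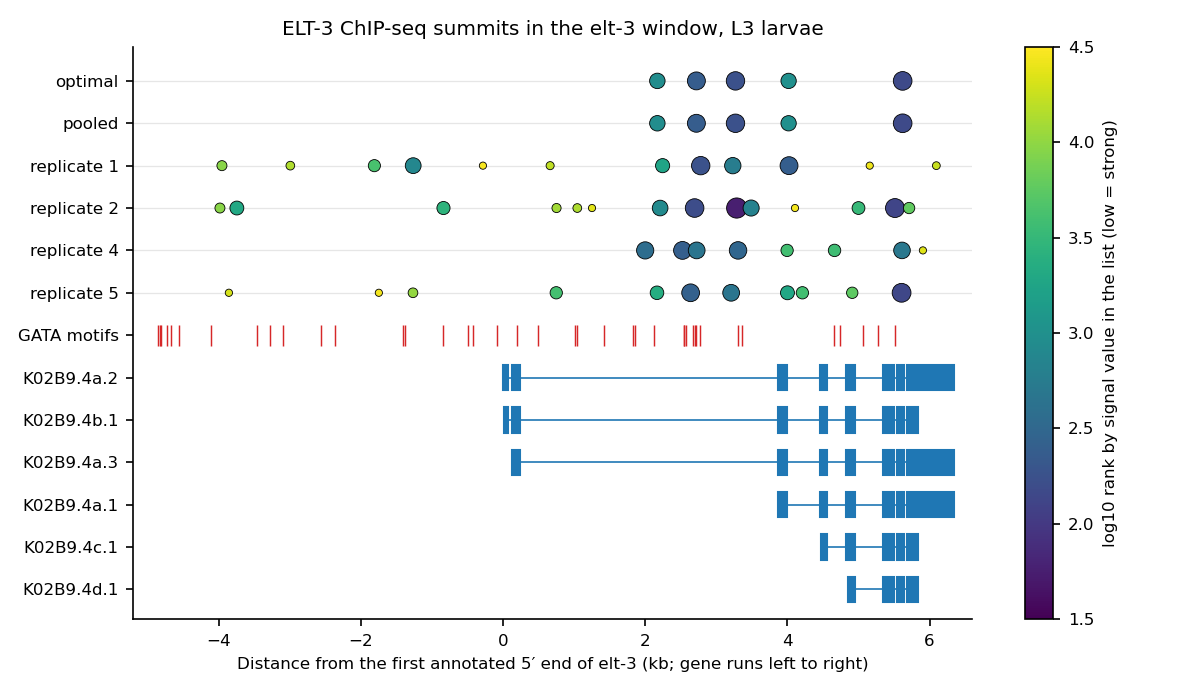
Summits in the elt-3 window by list (rows), against distance from the first annotated 5′ end in kb. Points are coloured by log10 rank and are larger for stronger peaks, red ticks are GATA motifs, and blue boxes are exons. The 5 optimal summits lie between +2171 and +5621 bp, and the 5 kb upstream hold replicate peaks but no pooled or optimal summit.

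The +5621 summit was the strongest of the elt-3 window in the pooled data, with rank 151 and signal 76.0 (−log10 q 2.82). It was matched within 100 bp at rank 5804 in replicate 2, 504 in replicate 4 and 139 in replicate 5, and by no peak in replicate 1. The mean rank over the 3 matched replicates was 2149 ± 3171 (SD, n = 3). That spread rested on replicate 2, whose stronger peak of rank 129 stood at −108 bp from the summit and so fell outside the matching distance. Matching within 200 bp took that peak and gave a mean of 257 ± 214 (SD, n = 3), and without replicate 2 the mean was 321.5 ± 258 (SD, n = 2). Replicate 1 had no match within 200 bp either, so the strongest summit at elt-3 was not seen in every replicate.

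The +3270 summit, of rank 175 and signal 72.4, was strong in all 4 replicates. Its ranks were 575, 57, 303 and 463 in replicates 1, 2, 4 and 5 (mean 349.5 ± 225, SD, n = 4). The +2720 summit, of rank 236 and signal 65.3, was likewise strong in all 4, with ranks 182, 157, 460 and 264 (mean 266 ± 137, SD, n = 4). These 2 summits were the only optimal ones of the window with a strong match in every replicate. Both held TGATAA, where 25.6% of all optimal summits had it within 50 bp. A link between the motif and agreement between replicates was not tested. The ranks of the 2 summits overlapped between replicates, and each was ahead of the other in 2 of the 4. At a matching distance of 50 bp, 0 of the 5 summits had a strong match in every replicate, since the match of replicate 5 stood at −81 bp from the +2720 summit and at −61 bp from the +3270 summit.

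The remaining summits were near the end of the optimal list. The +2171 summit ranked 921 with signal 41.6. It was matched at rank 1766, 836 and 2288 in replicates 1, 2 and 5 and not in replicate 4, which had a strong peak of rank 359 at +2000, outside the matching distance. The +4017 summit ranked 993 with signal 40.6. Its ranks were 242, 28139, 3957 and 1947 in replicates 1, 2, 4 and 5, so it was strong in replicate 1 alone and near the end of the list in replicate 2.

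Replicates differed in which summit of elt-3 came first. The best peak of the window stood at +2781 in replicate 1 (rank 182), +3287 in replicate 2 (rank 57), +2525 in replicate 4 (rank 250) and +5606 in replicate 5 (rank 139). Strong peaks in the window numbered 4, 5, 5 and 3, among 12, 14, 8 and 11 peaks of any rank. Replicate 4 listed no peak upstream of +2000, while replicates 1, 2 and 5 listed peaks there. The best of these was at −1263 in replicate 1, with rank 772, and it was the only strong one.

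A further optimal summit lay just outside the window, 6636 bp from the first 5′ end of elt-3 and past its 3′ end. It ranked 443 with signal 53.7 and had 1 GATA motif. Its ranks were 41, 514 and 723 in replicates 1, 4 and 5, with no match in replicate 2. It is not counted among the 5.

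The elt-3 window held many peaks for its length. There were 1.06, 1.23, 0.705 and 0.970 peaks per kb in replicates 1, 2, 4 and 5, against medians of 0.292, 0.290, 0.291 and 0.288 over all protein-coding genes. The share of genes with at least that density was 0.411%, 0.135%, 6.11% and 1.32%, so elt-3 stood out least in replicate 4. In the pooled list its 0.441 summits per kb compare with a median of 0.131, and 6.61% of genes had at least as many per kb. The other 3 genes had 0.194 to 0.439 peaks per kb in the replicate lists, on both sides of the medians.

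The dense region reached beyond the gene. From 20 kb upstream to 25 kb downstream of the first 5′ end of elt-3 there were 25 pooled summits in 45 kb, or 0.556 per kb, and 8 of them were optimal. The 30 kb to the left had 0.1 pooled summits per kb, and the 25 kb to the right 0.12. Replicates 1, 2, 4 and 5 had 0.8, 0.889, 0.6 and 0.8 peaks per kb in the 45 kb, against 0.333, 0.333, 0.433 and 0.333 to the left and 0.4, 0.4, 0.36 and 0.4 to the right. The limits of this region were set after its counts per 5 kb were seen. Reads of a transgenic copy of elt-3 and its flanks map to the same positions as those of the native gene and cannot be told apart in these lists. The part of such copies in the elt-3 peaks was not tested.

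**Figure D2:**
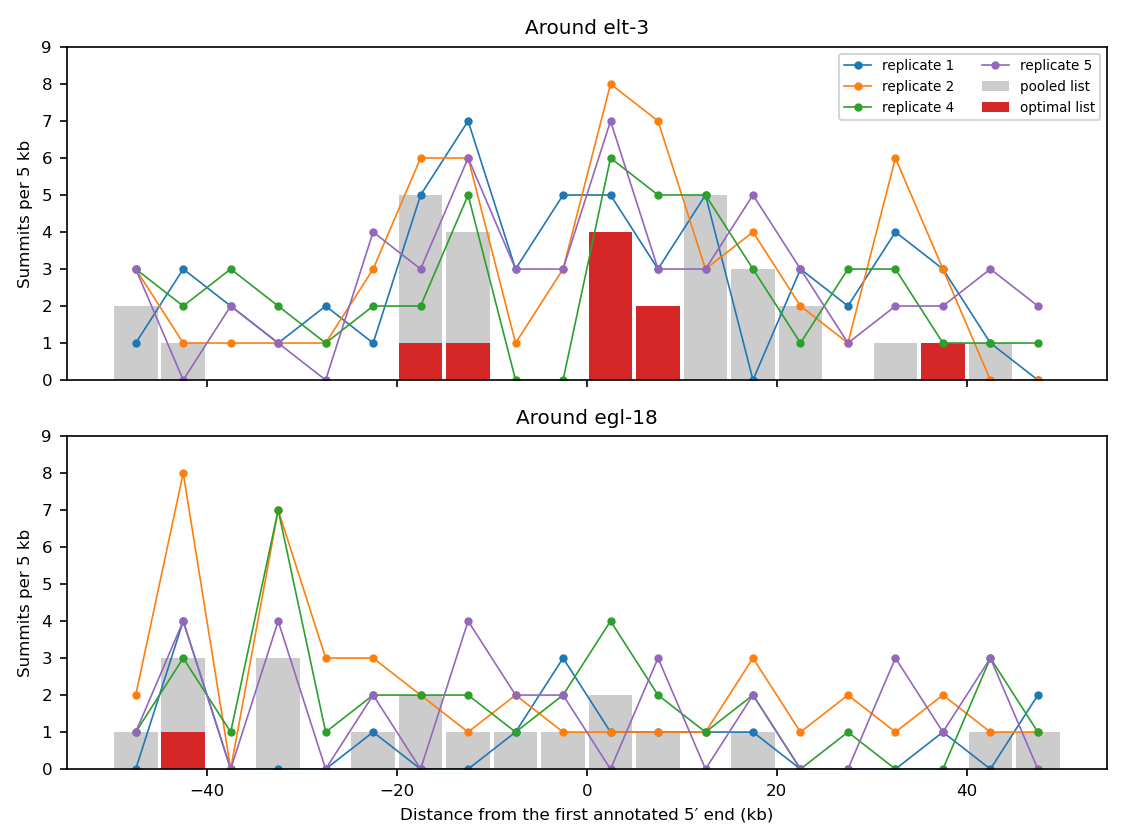
Number of summits per 5 kb against distance from the first annotated 5′ end in kb, around elt-3 (top) and egl-18 (bottom), where bars are the pooled and optimal lists and lines are the 4 replicates. Around elt-3 the pooled list has 25 summits between −20 and 25 kb, and around egl-18 no optimal summit lies within 40 kb.

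Within 20 kb of the gene's midpoint elt-3 had 31, 36, 25 and 33 peaks in replicates 1, 2, 4 and 5. The median over all protein-coding genes was 12 in each list, and the 95th percentile was 20, 20, 21 and 21. The counts were 19, 14, 13 and 11 around elt-1, 8, 13, 14 and 10 around egl-18 and 6, 12, 10 and 9 around elt-6, all at or below the 95th percentile. Among the genes next to elt-3, the window of meg-1 on the left held 0 pooled summits, and that of alg-1 on the right, which encodes an Argonaute protein, held 8 pooled and 0 optimal summits.

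elt-1 (WBGene00001249) lies on IV from 9614995 to 9620280 on the plus strand. Its 2 pooled summits were of low rank. The summit at −4145 ranked 11207 with signal 17.3, and no replicate had a peak within 100 bp. The summit at +4718 ranked 13560 with signal 16.2 and lay in the 3′ untranslated region of 4 transcripts. It was matched at rank 7823 in replicate 1 and 15220 in replicate 4 only. The deposited q-values were 0.882 and 0.939. The best peak of the window ranked 2685, 16243, 9567 and 2893 in replicates 1, 2, 4 and 5 and stood at −3947, −4300, −2026 and +4101, over a span of 8401 bp. The nearest optimal summit was 13008 bp outside the window.

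egl-18 (WBGene00001186) lies on IV from 1902322 to 1917840 on the plus strand, and its window of 20.5 kb was the longest of the 4. The pooled summit at −1014 was the strongest outside elt-3, with rank 3134, signal 26.2 and q-value 0.259. It was matched at rank 29034, 2158 and 8108 in replicates 1, 2 and 5 and not in replicate 4. The 3 others, at +282, +4268 and +7316 in the long intron, ranked 9916, 8504 and 12954. They had 1, 1 and 0 replicate matches. The match of +282 ranked 3839 in replicate 1, and that of +4268 ranked 5365 in replicate 4. All 4 summits lay near the farthest upstream 5′ end or in the intron that follows it, and that end is in the Ensembl annotation only. With the RefSeq ends, which place the first 5′ end at 1913446, the egl-18 window held 1 pooled summit.

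The best peak of the egl-18 window ranked 3839, 2158, 3617 and 2639 in replicates 1, 2, 4 and 5, an even set of values (mean 3063 ± 797, SD, n = 4). These peaks stood at different places, +307, −1053, +4088 and +9006, over a span of 10059 bp. Of all protein-coding genes, 25.2%, 14.9%, 21.7% and 17.1% had a best peak at least as high in those replicates. The nearest optimal summit was 37799 bp outside the window.

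elt-6 (WBGene00001253) follows egl-18 after a gap of 136 bp, from 1917977 to 1921643 on the same strand. The windows of egl-18 and elt-6 overlap over 4864 bp, which held 0 pooled summits and 1 peak of each replicate list. The only pooled summit of elt-6, at +1721 in coding sequence, ranked 9308 with signal 18.4 and q-value 0.816. It had a match in replicate 1 alone, at rank 7051. The best peak of the window ranked 7051, 20005, 11638 and 10270 in replicates 1, 2, 4 and 5 and stood at +1757, −2318, −4103 and +3127. With a mean of 12241 ± 5522 (SD, n = 4), elt-6 was the lowest of the 4 genes.

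**Figure D3:**
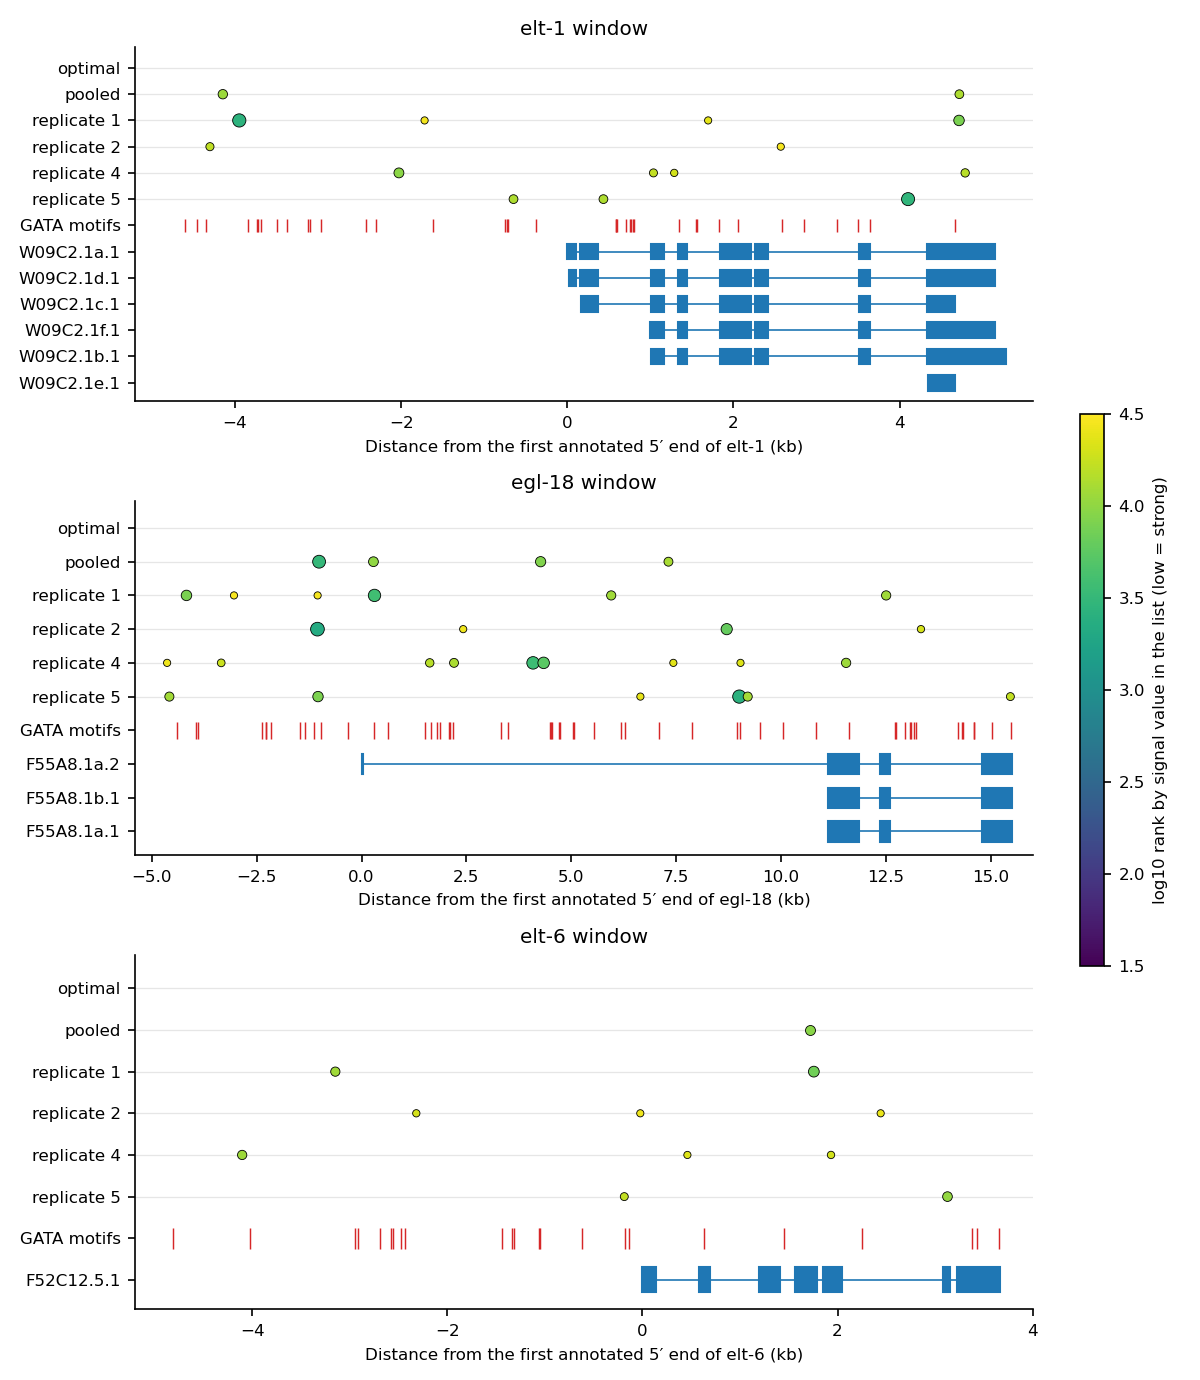
Summits in the windows of elt-1 (top), egl-18 (middle) and elt-6 (bottom) by list, against distance from the first annotated 5′ end in kb, drawn as for elt-3. The optimal rows are empty, and the best replicate peaks stand apart from each other, over spans of 8401, 10059 and 7230 bp.

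Ordered by mean best rank over the 4 replicates, elt-3 came first with 157 ± 80.8 (SD, n = 4), then egl-18, elt-1 with 7847 ± 6446 and elt-6. The highest and lowest best ranks of elt-3, 57 and 250, did not overlap those of any other of the 4 genes. The ranks of egl-18 and elt-1 overlapped, as did those of elt-1 and elt-6. Those of egl-18, at most 3839, and elt-6, at least 7051, did not. These 2 windows overlap, and in replicates 2 and 4 the best elt-6 peak, of rank 20005 and 11638, also lay in the egl-18 window. In those replicates egl-18 could therefore not rank below elt-6. A best peak that was strong in every replicate was found at 1 of the 4 genes, elt-3, where 1.55% of all protein-coding genes had one. Longer windows have more room for a high-ranked peak, and the egl-18 window is longer than the others. The ranks of egl-18 also depend on its first 5′ end, which is in the Ensembl annotation only. With the RefSeq ends, its best peaks ranked 11773, 6116, 11638 and 2639 in replicates 1, 2, 4 and 5. These ranks overlap those of elt-6. The place of egl-18 before elt-1 and its separation from elt-6 thus rest on the Ensembl end.

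**Figure D4:**
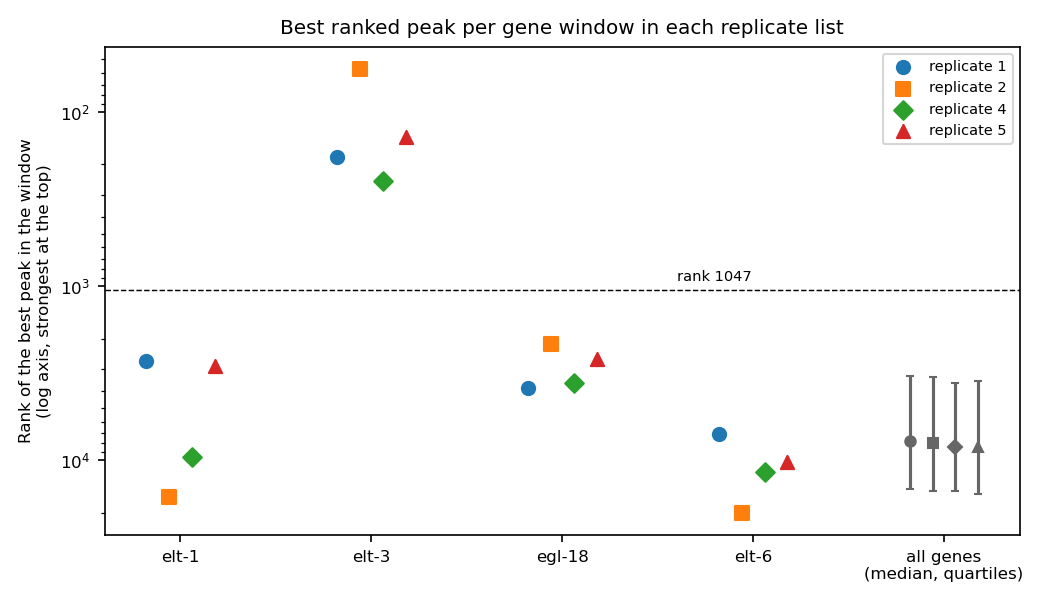
Rank of the best peak in the window of each gene, on a log axis with the strongest at the top, in replicates 1, 2, 4 and 5. Grey symbols are the medians of all protein-coding genes with a peak in the window, bars their quartiles, and the dashed line is rank 1047. All 4 replicates lie above the line for elt-3 and below it for the other 3 genes.

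Motif numbers in elt-3 and elt-1 were close. The windows held 40 motifs in elt-3, 38 in elt-1, 55 in egl-18 and 23 in elt-6. Per kb these are 3.53, 3.69, 2.68 and 2.65, against a median of 2.43 over all protein-coding genes. Within 50 bp of a pooled summit were 4 of the 40 in elt-3, 0 of the 38 in elt-1, 2 of the 55 in egl-18 and 0 of the 23 in elt-6. Most motif copies in each window were away from any pooled summit. This follows largely from length, since the 101 bp around each summit cover only a small part of a window.

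The windows of the other GATA genes of the worm, which include the genes of the endoderm and intestine, were read in the same way. Of the 7, namely med-1, med-2, end-1, end-3, elt-2, elt-4 and elt-7, 0 had an optimal summit and 5 had a pooled one, against 7.62% and 62.2% of all protein-coding genes. The 0 depends on the 5 kb limit, since an optimal summit of rank 495 and signal 51.8 lay 68 bp outside the window of med-1. The highest ranked pooled summit was at elt-2, the main intestinal GATA factor, with rank 4824 and signal 22.7. A strong replicate peak occurred once, at med-1 in replicate 4 with rank 339, while its best ranks were 28403 and 11915 in replicates 1 and 2 and replicate 5 listed none.

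Among 23 genes of the epidermal and Wnt network around these factors, 5 had an optimal summit and 17 a pooled one, against 7.62% and 62.2% of all protein-coding genes. Their windows were longer, with a median of 9.73 kb against 7.03 kb over all protein-coding genes, so these shares are not compared at equal length. The highest signal was at sys-1, a beta-catenin of the Wnt asymmetry pathway, with rank 60, signal 98.9 and best ranks of 63, 79, 111 and 655 in replicates 1, 2, 4 and 5. It was the only gene of this list strong in all 4 replicates. Next were the nuclear hormone receptor genes nhr-23 (signal 56.8) and nhr-25 (53.7), the zinc finger gene lin-26 (49.7), which epidermal cells need to differentiate, and the zinc finger gene blmp-1 (49.2). The signal at grh-1, the Grainyhead factor gene, was 36.6 and this summit was not in the optimal list. An optimal summit of rank 74 and signal 95.4 lay 833 bp outside the grh-1 window. A window can hold the promoter of a neighbouring gene, so these summits are not assigned to the named genes alone.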

How the data were processed

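The authors deposited narrowPeak lists, called against 1 control from another experiment, per the listings deposited with the samples. The signal value per peak is the strength from the authors' peak caller, and the −log10 q-value is likewise the authors'. The sources used here name no aligner, caller or read number, so the depth behind each peak is unknown and no counting interval is given. The list of replicate 2 was assigned from the listings of its 3 libraries, which name its alignment. The lists on ce10 were not used. Nothing says whether replicates were separate cultures, so their spread may be partly technical.

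Genes were taken from Ensembl release 115 and sequences from the RefSeq copy of WBcel235, which is ce11. Coordinates are counted from 1. Equal signal values share the better rank. A replicate match is the best ranked peak with a summit within 100 bp. Counting, matching and motif search were checked on simulated data. Python 3.11.15 with pandas 2.3.3 was used. Members and gene lists were chosen with earlier results of these data known. The named genes are the 4 members, their neighbours, the other GATA genes, the 6 of the epidermal list with the highest pooled signal and the 3 genes most like elt-3 in best ranks. Alternatives were other windows, matching distances, list lengths, motif settings and replicates left out.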

Additional observations from a re-analysis of the deposited data

Results flagged for a closer look

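Of 15 quantities compared across the 4 replicates, 1 had a replicate far from the rest. At the elt-3 summit +4017, replicate 2 had rank 28139, where replicates 1, 4 and 5 had ranks from 242 to 3957. The limit used flags about 1 quantity in 20 by chance when values are normally distributed. Ranks need not be, so the chance rate for these quantities is not known. The match in replicate 2 stood 90 bp from the summit, near the limit of 100 bp.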

How the results depend on the processing

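The 5 optimal and 12 pooled summits in the member windows were 5 and 11 with 2 kb upstream, 5 and 13 with 10 kb, and 5 and 12 when any overlap of a peak counted. The RefSeq gene ends, chosen after seeing the data, gave 5 and 9. In lists kept only down to their median signal there were 3 optimal and 6 pooled summits, which follows from the shorter lists. The 2 summits strong in every replicate were 0 with matching within 50 bp, 2 within 200 bp, 2 with the limit of strong peaks set at 2 times the list length, 3 with any replicate peak, and 2 to 2 with each replicate left out. The mean rank of the strongest elt-3 summit ranged from 321.5 to 3154 with each replicate left out. The 4 pooled summits with a GATA motif were 2 within 25 bp and 2 for TGATAA alone, both narrower searches, and 6 within 100 bp, a wider one. No paired analysis was possible because there is 1 group.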

Other observations

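Only 4 protein-coding genes had 5 or more optimal summits in the same kind of window. They were elt-3 with 5 in 11.3 kb, mnk-1 with 5 in 17.6 kb, kin-14 with 6 in 8.66 kb and mstr-1 with 6 in 7.48 kb, and apart from elt-3 they were named after their values were seen. By best ranks in the 4 replicates, the gene most like elt-3 among 13180 compared was mnk-1, with ranks 172, 84, 354 and 183 in replicates 1, 2, 4 and 5 and a summed log10 difference of 0.463. Next were che-13 and dhhc-12, both with ranks 169, 56, 464 and 204 and a summed difference of 0.475. Both lie on chromosome I, and their equal ranks point to shared peaks rather than 2 separate places. Each had 1 optimal summit in its window.

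Optimal summits also stood −17338, −14286 and 39990 bp from the first 5′ end of elt-3, with ranks 950, 199 and 746. The summit at −14286, nearest to the 5′ end of ekl-5, had signal 69.6 and held no GATA motif. Its ranks were 51, 473 and 621 in replicates 1, 4 and 5, with no match in replicate 2.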
